A study of Mus musculus with 9 samples.

Results

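Type I interferon-stimulated genes are described here in granulocyte-macrophage progenitors (GMPs) that lost 1 or both working copies of Dicer1. The members were fixed by a list of 10 gene symbols: Oas1a, Rsad2, Cmpk2, Irf7, Irf9, Isg15, Ifit1, Ifit2, Ifit3 and Ifi27. Every probe set that the array annotation assigns to a single one of these symbols was taken, which gave 13 probe sets for 9 genes, out of 45101 probe sets and 18193 named genes on the array. Isg15, the ubiquitin-like modifier, has no probe set of its own, because its only one is also assigned to Gm9706, and it is named here without a value.

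The RNA came from EYFP-positive GMPs sorted from the bone marrow of transplanted mice, with 3 arrays for each of 3 genotypes. All donors carried Cebpa-Cre, a recombinase driven by the myeloid Cebpa gene, and R26-LSL-Eyfp, a reporter that the recombinase switches on. The groups differed in the floxed Dicer1 gene and are labelled Dicer wild type, Dicer heterozygous deletion (Dicer -/wt) and Dicer null (Dicer fl/fl). Fetal liver cells of embryonic day 13.5 were given to C57BL/6 recipients aged 6 to 8 weeks and irradiated with 8.5 Gy, and tissues were taken 6 to 10 weeks later. The host's own residual cells lack the reporter and are outside the sort gate. Cells of 1 fetal liver were typically given to more than 1 recipient, and the labels do not say which samples share a donor, so p-values cover only how these samples vary, and that variation may be technical in part.

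Type I interferons bind the receptor pair Ifnar1 and Ifnar2, whose kinases Jak1 and Tyk2 phosphorylate Stat2. Irf9 and Stat2 are part of a complex that binds the interferon-stimulated response element in the promoters of its target genes. The targets include antiviral effectors such as the oligoadenylate synthetase Oas1a and viperin (Rsad2), and Irf7, which raises further interferon production. Many blood progenitors express some of these genes without infection.

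The promoter stretches below belong to the members whose signals rose in null cells on their brightest probe set under nearly every processing, with Ifit1 as a member whose signals did not pass the test. Only the core of that element was searched, and those of Cmpk2 and Irf9 held no match. The stretches are RefSeq sequences of GRCm38.p6, read 5′ to 3′ on the gene's strand and ending at or before the annotated start, with each match to the element's core in capitals. The core searched was GAAA, any 2 bases and GAAA again, read on either strand, so that on the gene's own strand it can also appear as TTTC, any 2 bases and TTTC. Matches may overlap, and a match describes the letters only. The Cmpk2 stretch is shorter, because it was cut 98 bases before the start used, where the widest extent that RefSeq gives the gene begins. The start used for Oas1a lies 19 bases inside the widest extent that RefSeq gives the gene, so the last 19 bases of its stretch, and most of its marked match, fall within that extent.
Oas1a, chr5:120907526-120907775, minus strand: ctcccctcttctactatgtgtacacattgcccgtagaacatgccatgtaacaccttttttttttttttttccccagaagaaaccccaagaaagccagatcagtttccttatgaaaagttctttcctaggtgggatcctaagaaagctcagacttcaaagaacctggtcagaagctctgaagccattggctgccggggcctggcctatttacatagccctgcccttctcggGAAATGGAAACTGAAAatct
Rsad2, chr12:26456453-26456702, minus strand: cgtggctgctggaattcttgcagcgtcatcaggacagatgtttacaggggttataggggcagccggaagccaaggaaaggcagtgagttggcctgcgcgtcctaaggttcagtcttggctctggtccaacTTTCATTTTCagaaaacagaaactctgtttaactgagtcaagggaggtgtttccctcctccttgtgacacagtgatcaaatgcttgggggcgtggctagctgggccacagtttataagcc
Cmpk2, chr12:26468965-26469116, plus strand: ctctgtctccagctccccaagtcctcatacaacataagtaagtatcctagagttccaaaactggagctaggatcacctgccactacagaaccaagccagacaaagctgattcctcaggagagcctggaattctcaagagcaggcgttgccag
Irf9, chr14:55603735-55603984, plus strand: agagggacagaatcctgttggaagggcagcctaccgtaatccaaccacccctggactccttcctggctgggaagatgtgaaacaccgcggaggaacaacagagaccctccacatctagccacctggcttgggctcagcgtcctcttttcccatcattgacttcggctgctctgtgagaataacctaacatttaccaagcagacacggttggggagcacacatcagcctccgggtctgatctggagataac
Ifit1, chr19:34640639-34640888, plus strand: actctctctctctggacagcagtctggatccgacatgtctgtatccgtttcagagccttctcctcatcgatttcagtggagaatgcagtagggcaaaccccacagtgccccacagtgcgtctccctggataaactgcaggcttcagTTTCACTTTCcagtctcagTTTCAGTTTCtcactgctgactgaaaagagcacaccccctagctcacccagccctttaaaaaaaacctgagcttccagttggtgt

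The table of promoters lists windows of 250 bases before to 50 after a start for 9 of the 10 members, with none for Ifi27. Among them Oas1a, Rsad2, Isg15, Ifit1 and Ifit3 held the core, 5 of 9, against 1079 of 27025 genes with a window (3.99%). The core was not particular to the members. In the pathway lists described below, 10 of 18 interferon ligands, 13 of 39 other interferon-stimulated genes and 7 of 20 interferon gamma genes held it. So did 1 of 5 receptor and signalling genes, 4 of 19 nucleic acid sensing genes and 2 of 8 feedback regulators. Oas1a held 2 overlapping matches, from 20 to 5 bases before its start, and Rsad2 held 1, from 120 to 111 bases before. Isg15 held 3 overlapping matches and Ifit1 and Ifit3 held 2 each, which in those 2 genes had the same letters, TTTCACTTTC and TTTCAGTTTC. Cmpk2, Irf7, Irf9 and Ifit2 held none in their windows. The start used lies inside the gene's widest RefSeq extent by 98 bases for Cmpk2, 75 for Irf7 and 144 for the first Ifit2 window. These windows therefore hold only 152, 175 and 106 bases before the gene, and a core further upstream would be missed. Of the 4 members with a window that rose in null cells, 2 held the core, and so did 1 of the 3 tested members with a window that did not pass. Among other interferon-stimulated genes, 1 of 7 that rose held it, against 8 of 25 tested that did not rise. For interferon gamma genes these counts were 5 of 9 and 2 of 10, and for sensing genes 2 of 3 and 2 of 12. Rsad2 and Cmpk2 are neighbouring genes on chromosome 12, while Ifit2 and Ifit3 are neighbours on chromosome 19, where Ifit1 also lies.

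All 10 GMP markers checked, among them Mpo, Elane, Kit and Cd34, passed the filter on dim genes, and their summed signal was 28362 to 31680 in wild-type cells, 28224 to 33264 in heterozygous cells and 28626 to 30537 in null cells. Of the 10, Fcgr3 was higher in null against wild type by 0.37 (limma adjusted p = 0.00959). Csf3r was lower in null cells, at -0.38 against wild type (adjusted p = 0.0182) and -0.40 against heterozygous cells (adjusted p = 0.0144). The first Csf3r call was lost without null replicate 3 or either of wild-type replicates 2 and 3 (0.0514 to 0.0525), and the second without heterozygous replicate 3 (0.0632). Dicer1, the targeted gene, read 105 ± 9.46 in null, 185 ± 16.1 in heterozygous and 232 ± 11.1 in wild-type cells on the brighter of its probe sets (mean ± SD, n = 3). The Xist signal was 2610 in wild-type replicate 2, where the other 8 arrays had 16.4 to 30.2, although the labels call every sample female. Eif2s3y, a gene of the Y chromosome, read 1.13 in wild-type replicate 2 and 622 to 859 on the other 8 arrays. By these 2 genes wild-type replicate 2 reads as female and the other 8 arrays, with every null and heterozygous array among them, as male. Without wild-type replicate 2, Oas1a, Rsad2, Cmpk2 and Irf9 still passed in null against wild type, and Ifi27 did not. The 3′ to 5′ signal ratio of the Gapdh control probe sets was 6.00 to 6.33 on heterozygous, 6.56 to 7.44 on wild-type and 7.11 to 7.72 on null arrays, and an 18S ribosomal RNA control read 2746 ± 331 on heterozygous against 1314 ± 544 on wild-type arrays. The part of these differences in the results that set heterozygous cells against the others was not tested.

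Of the 9 members with a probe set, 8 had a mean signal over the filter on dim genes (a signal of 8.49) and were tested, and Ifit3 was not. In null against wild-type GMPs 5 of the 8 rose and 0 fell by limma at an adjusted p under 0.05: Oas1a, Rsad2, Cmpk2, Irf9 and Ifi27. An unadjusted p under 0.05 was reached by 7 of the 8, all upward, and by 3578 of all 12347 genes tested, in either direction. At an adjusted p under 0.05, 7.60% of all genes tested rose and 8.09% fell, 15.7% in all. The members were chosen with earlier results of these data known, so their share beside that of all genes is a description and not a test. The median change of the 8 was 0.60 on the log2 scale, and that of all genes was -0.04. The 3 null values all lay above the 3 wild-type values in 5 of the 8, against 14.1% of all genes, and below them in 0, against 19.0%. Since these are bulk samples, more cells expressing a gene and more RNA per cell cannot be told apart.

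**Figure D1:**
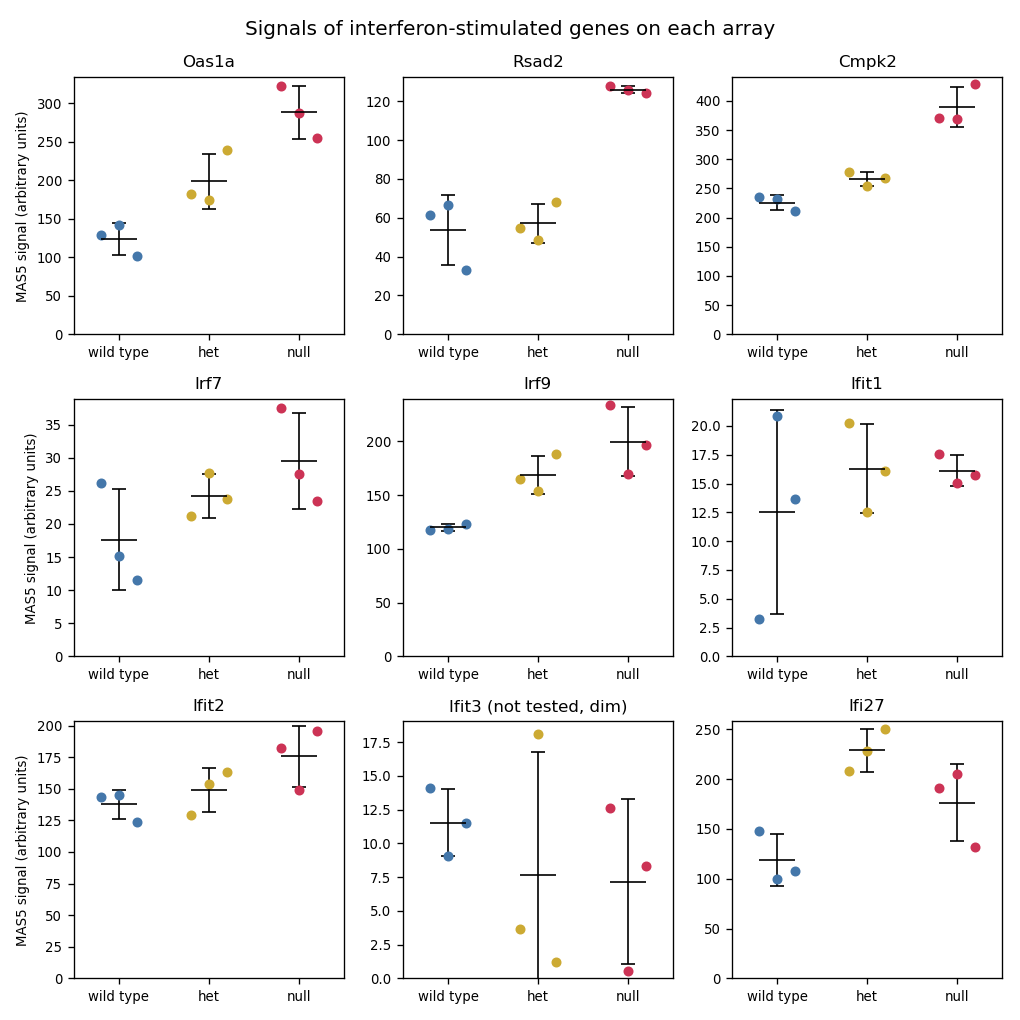
MAS5 signal of each array (points, linear axis from 0, arbitrary units) for the 9 members with a probe set, on the probe set that stands for the gene, with the mean (long bar) and SD (whiskers, cut at 0) of the 3 arrays of a genotype. Points of a genotype run from replicate 1 to replicate 3 from left to right. Oas1a and Cmpk2 step up from wild type to het to null without overlap, Rsad2 stands apart in null cells, and Ifi27 is highest in het cells.

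Oas1a makes the 2′-5′ oligoadenylates that activate RNase L. Its signals were 129, 142 and 102 in wild-type cells, 182, 174 and 239 in heterozygous cells and 323, 287 and 254 in null cells. The genotypes did not overlap and lay in the order wild type, heterozygous, null. Oas1a rose in null against wild type by 1.14 (SE 0.14, limma adjusted p = 0.000146). It also rose against heterozygous cells, by 0.52 (SE 0.14, adjusted p = 0.0262). In heterozygous against wild type the change was 0.63 (SE 0.14, adjusted p = 0.0453). The null against wild-type call held in all 20 alternatives, with changes of 1.02 to 1.24. That of heterozygous against wild type held in 9 of 20. It was lost on leaving out any heterozygous array (adjusted p = 0.0876, 0.0749 and 0.187 for replicates 1, 2 and 3), null replicate 2 (0.0657), or replicate 1 (0.104) or 3 (0.143) of wild-type cells. The call against heterozygous cells was lost without null replicate 1 (0.102) or 2 (0.0600), or heterozygous replicate 1 (0.103) or 2 (0.112).

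Rsad2 encodes viperin, a radical enzyme that makes a chain-terminating nucleotide from CTP. Its brightest probe set read 61.4, 66.6 and 33.2 in wild-type cells, 54.7, 48.4 and 68.3 in heterozygous cells and 128, 126 and 124 in null cells. The heterozygous values overlapped the wild-type values, and the 3 null values were close to each other and above both. Rsad2 rose in null cells by 1.11 against wild type (SE 0.19, adjusted p = 0.00123) and by 1.01 against heterozygous cells (SE 0.19, adjusted p = 0.00292). Between heterozygous and wild-type cells the difference was 0.10, with a 95% interval of -0.29 to 0.50 (adjusted p = 0.880), and -0.01 or -0.15 without heterozygous replicate 3 or wild-type replicate 3.

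Cmpk2, the neighbour of Rsad2, is a mitochondrial nucleotide kinase. Its brighter probe set read 235, 231 and 211 in wild-type cells, 278, 254 and 267 in heterozygous cells and 370, 369 and 430 in null cells. As for Oas1a, the 3 genotypes did not overlap, with null cells highest. Of all genes tested, 0.931% had their 9 values in this order without overlap. Cmpk2 rose by 0.75 in null against wild type (SE 0.09, adjusted p = 0.000151) and by 0.53 against heterozygous cells (SE 0.09, adjusted p = 0.00246). Between heterozygous and wild-type cells the difference was 0.23, with an interval of 0.03 to 0.43, which did not pass (adjusted p = 0.316).

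Irf9 gives the complex that holds Stat2 its binding to the response element. Its signals were 117, 119 and 124 in wild-type cells, 165, 154 and 188 in heterozygous cells and 233, 169 and 197 in null cells. Wild-type cells were lowest on every array, and the heterozygous and null values overlapped. Irf9 rose in null against wild type by 0.67 (SE 0.12, adjusted p = 0.00218). The heterozygous excess over wild type was 0.45 (95% interval 0.19 to 0.71, adjusted p = 0.0991) and null against heterozygous 0.22 (-0.04 to 0.48, adjusted p = 0.268). Neither passed.

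Irf7, the transcription factor that amplifies interferon production, was dim. It read 26.3, 15.1 and 11.5 in wild-type cells, 21.2, 27.7 and 23.8 in heterozygous cells and 37.5, 27.6 and 23.4 in null cells, so that all 3 genotypes overlapped. Null against wild type gave 0.50 (95% interval 0.05 to 0.95, adjusted p = 0.127). Leaving out wild-type replicate 1, which was the highest of its group, gave 0.70, which passed (adjusted p = 0.0450).

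The Ifit genes encode proteins of tandem repeats that bind viral RNA or the translation machinery, and none of the 3 passed. Ifit2 read 144, 145 and 124 in wild-type cells, 129, 154 and 163 in heterozygous cells and 183, 149 and 196 in null cells. Its null values lay just above all wild-type values, with a change of 0.32 (95% interval 0.05 to 0.59, adjusted p = 0.09999), and without null replicate 2 it passed (0.43, adjusted p = 0.0438). Ifit1 was near the dim end, at 12.6 ± 8.85 in wild-type cells, 16.3 ± 3.85 in heterozygous cells and 16.1 ± 1.33 in null cells (SD, n = 3). The interval of its change in null against wild type, -0.29 to 0.81, spans 0, and without wild-type replicate 1, whose signal was 3.21, the change was -0.05. Ifit3 stayed below the filter at 11.5 ± 2.51, 7.64 ± 9.11 and 7.15 ± 6.11 in the same order. Tested without the filter, Ifit3 gave -0.35 in null against wild type (adjusted p = 0.604), and -0.07 when null replicate 2, at a signal of 0.551, was left out.

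Ifi27, whose product sits in membranes of the nucleus and mitochondria, had another pattern. Its representing probe set read 148, 99.7 and 108 in wild-type cells, 208, 228 and 250 in heterozygous cells and 191, 205 and 132 in null cells. The heterozygous values were the highest and overlapped with neither other genotype, while null replicate 3 fell among the wild-type values. Ifi27 rose in heterozygous against wild type by 0.90 (SE 0.16, adjusted p = 0.0113) and in null against wild type by 0.52 (SE 0.16, adjusted p = 0.0432). Null against heterozygous gave -0.37 (95% interval -0.72 to -0.02, adjusted p = 0.151). The heterozygous call did not pass without heterozygous replicates 2 or 3 (adjusted p = 0.0560 and 0.0670). That in null cells held in 9 of 20 alternatives and was lost on leaving out any heterozygous array (0.0528, 0.0626 and 0.0524), null replicate 1 (0.131) or 2 (0.150), or wild-type replicate 2 (0.141) or 3 (0.127). In the RefSeq annotation Ifi27 lies beside Ifi27l2a, a gene of the same family, and the probes of these genes may share targets. Ifi27l2a was dim, with means of 12.6, 24.4 and 17.6 in wild-type, heterozygous and null cells.

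**Figure D2:**
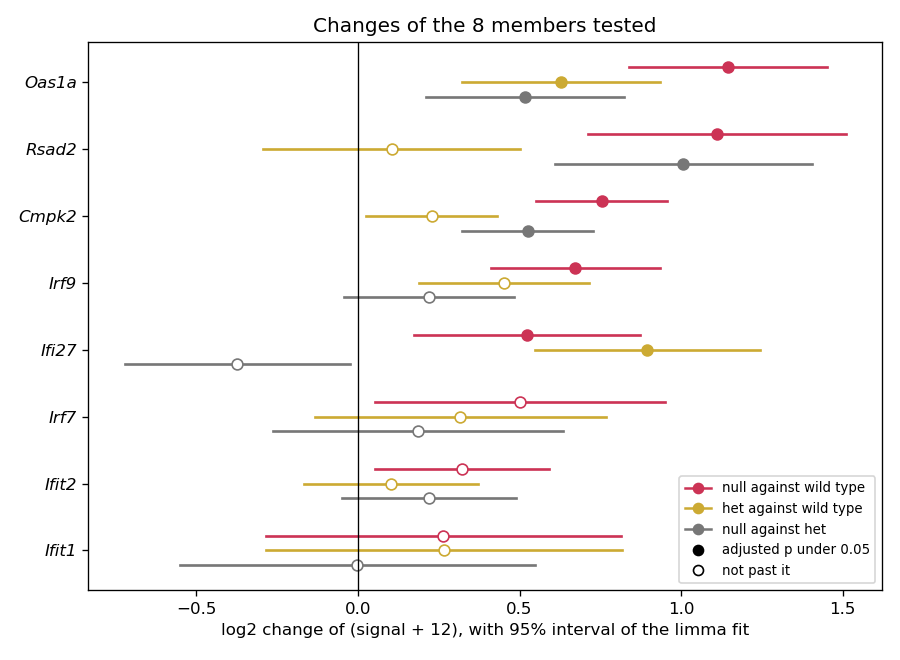
log2 change of (signal + 12) for the 8 members tested (points) with the 95% interval of the limma fit (lines), in null against wild type, het against wild type and null against het, filled where the adjusted p was under 0.05. The largest changes are those of Oas1a (1.14) and Rsad2 (1.11) in null against wild type, and Ifi27 is the member with a null against het interval below 0.

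In heterozygous against wild-type cells 2 of the 8 members rose, Ifi27 and Oas1a, and 0 fell. An unadjusted p under 0.05 was reached by 4 of the 8, all upward, and by 1594 of the 12347 genes tested, in either direction. At an adjusted p under 0.05, 0.697% of all genes rose and 0.697% fell, 1.39% in all. The 3 heterozygous values lay above all wild-type values in 4 of the 8 and below them in 0, against 8.48% and 9.78% of all genes. In null against heterozygous cells 3 of the 8 rose, Oas1a, Rsad2 and Cmpk2, and 0 fell. An unadjusted p under 0.05 was reached there by 4, of which Ifi27 was downward, and by 3442 of the 12347 genes tested. At an adjusted p under 0.05, 6.84% of all genes rose and 7.49% fell, 14.3% in all. The null values lay above all heterozygous values in 3 of the 8 and below them in 1, Ifi27, against 14.7% and 18.0%. The heterozygous comparison with wild type shares its control arrays with the null comparison, and Oas1a and Ifi27 passed in both, with changes of 0.63 and 0.90 in heterozygous and 1.14 and 0.52 in null cells.

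Across arrays, the mean of the 8 members' standardised log2 values was -1.25 to -0.63 in wild-type cells, -0.06 to 0.37 in heterozygous cells and 0.58 to 1.12 in null cells. After the mean of each genotype was subtracted, the deviations of Oas1a and Rsad2 correlated at 0.837 over the 9 arrays, the highest of 28 pairs of members, whose range reached down to -0.654. Both genes were lowest of their group in wild-type replicate 3 and highest of their group in heterozygous replicate 3 and null replicate 1. All genes of an array share its RNA and its scaling, so this is a description of these arrays.

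Probe sets of 1 gene did not always move alike. The second probe set of Rsad2 read 13.2, 19.4 and 7.30 in wild-type cells, 11.4, 19.8 and 14.5 in heterozygous cells and 20.6, 28.9 and 27.2 in null cells. It had the null values on top as well, with a change of 0.59 against wild type that did not pass over all probe sets (adjusted p = 0.0956). The third was under the filter, at 10.8 ± 5.73 in wild-type and 4.88 ± 5.82 in null cells. With all 3 averaged, Rsad2 gave 0.41 in null against wild type and did not pass (adjusted p = 0.148), nor did it against heterozygous cells (0.41, adjusted p = 0.165). The dimmer probe set of Cmpk2 gave 0.07 (95% interval -0.39 to 0.53), at means of 16.6 in wild-type cells, 21.3 in heterozygous cells and 18.9 in null cells. Averaged over both probe sets, Cmpk2 still passed in null against wild type (0.41, adjusted p = 0.0268), though not against heterozygous cells (0.19, adjusted p = 0.285). The other probe set of Ifi27 read 124 ± 29.4, 202 ± 14.1 and 174 ± 41.8 in wild-type, heterozygous and null cells, with the highest mean again in heterozygous cells, although null replicate 2 was the highest array at 222. Over all probe sets 4 of the 11 member probe sets over the filter rose in null against wild type, with 0 falling, against 5.08% and 6.02% of all probe sets, and those of Ifi27 were not among them (adjusted p = 0.0562 and 0.108). In null against heterozygous cells 3 rose and 0 fell, against 4.47% and 4.58%, and in heterozygous against wild type 1 rose and 0 fell, against 0.485% and 0.527%.

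**Figure D3:**
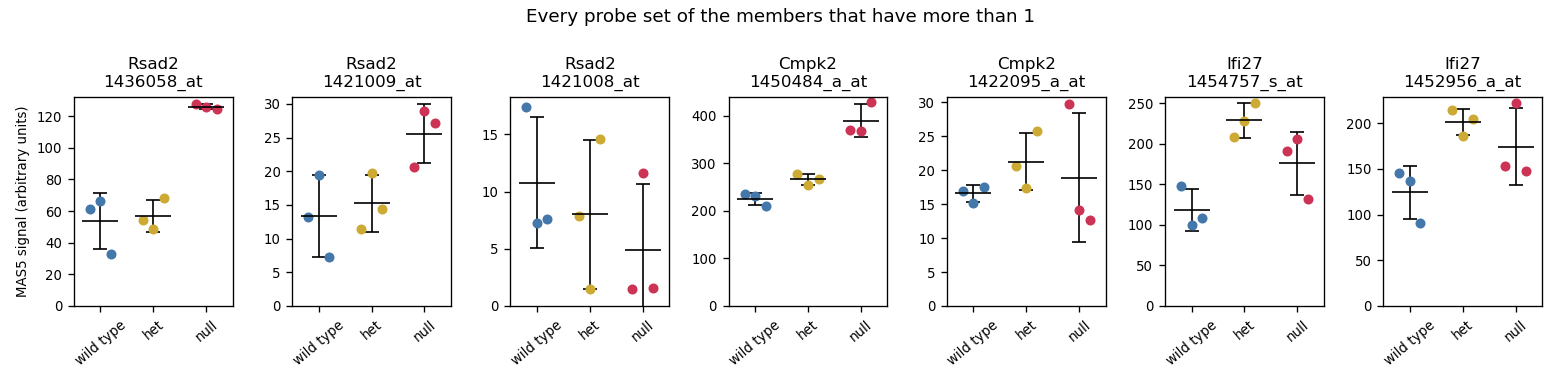
MAS5 signal of each array (points, linear axis from 0, arbitrary units) for every probe set of Rsad2, Cmpk2 and Ifi27, brightest first within a gene, with the mean (long bar) and SD (whiskers, cut at 0) of 3 arrays. The second Rsad2 probe set has its null points on top like the first, the third Rsad2 and the second Cmpk2 probe set do not separate the genotypes, and both Ifi27 probe sets have their highest mean in het cells.

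Upstream of the members, the interferon genes themselves gave little signal. Of 19 ligand genes 10 had a probe set of their own and 4 passed the filter, and limma called 0 of them in null against wild type, with 1 at an unadjusted p under 0.05. Ifnb1, the first type I interferon made in many cells, read 8.23 ± 5.41 in wild-type cells, 14.4 ± 3.18 in heterozygous cells and 10.1 ± 0.162 in null cells (SD, n = 3), all near the filter. The receptor chains were measured well above it, Ifnar1 at 136 ± 23.4, 134 ± 24.4 and 150 ± 20.1 and Ifnar2 at 525 ± 47.8, 571 ± 18.9 and 584 ± 28.6. Their changes in null against wild type were 0.13 (95% interval -0.19 to 0.46) and 0.15 (-0.03 to 0.34), and neither passed. Of 5 receptor and signalling genes tested 1 rose, against 7.60% of all genes, the kinase Jak1, by 0.32 (SE 0.10, adjusted p = 0.0377), and Stat2, the partner of Irf9, gave 0.36 (adjusted p = 0.208). Jak1 rose against heterozygous cells too (0.49, adjusted p = 0.00416). Its other probe sets did not pass, at 0.13 and 0.28 against wild type (adjusted p = 0.667 and 0.199) and -0.11 and 0.15 against heterozygous cells (0.742 and 0.557).

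Among genes that sense foreign or misplaced nucleic acid, 3 of 20 rose and 1 fell in null against wild type, a share near that of all genes, of which 7.60% rose and 8.09% fell. The fall was in Sting1, the adaptor of cytosolic DNA sensing, whose signal went from 190 ± 10.2 in wild-type and 194 ± 19.1 in heterozygous to 118 ± 10.1 in null cells (-0.64, SE 0.11, adjusted p = 0.00128). Its dimmer probe set gave -0.29 (adjusted p = 0.334), and -0.37 against heterozygous cells (0.234). The rises were in the RNA sensors Ddx58 (0.54, adjusted p = 0.0409) and Eif2ak2 (0.39, adjusted p = 0.0495) and the kinase Tbk1 (0.26, adjusted p = 0.0383). Other probe sets did not pass, at 0.09 for Tbk1 (adjusted p = 0.658) and 0.27 and 0.43 for Eif2ak2 (0.408 and 0.112). In null against heterozygous cells 2 of the 20 rose, Ddx58 and Tbk1, and 4 fell, where 6.84% of all genes rose and 7.49% fell. The falls were in Sting1 (-0.66), the transcription factor Irf3 (-0.58), and Rnaseh2a and Rnaseh2c (-0.42 and -0.41), subunits of the enzyme that removes ribonucleotides from DNA. Other probe sets in that comparison gave 0.34 for Tbk1 (adjusted p = 0.0713), -0.98, 0.02 and -0.35 for Irf3 (0.154, 0.966 and 0.352) and -0.47 and -0.65 for Rnaseh2c (0.0554 and 0.00136). Among 9 feedback regulators limma called 0 in null against wild type, and 2 had an unadjusted p under 0.05. Usp18, which removes Isg15 from proteins, gave 0.40 (95% interval -0.06 to 0.86, adjusted p = 0.240).

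Other interferon-stimulated genes, from a list of 51 of which 43 were tested, had 10 higher and 1 lower in null against wild type, with a median of 0.22, where 7.60% of all genes rose and 8.09% fell. Parp12, an ADP-ribosyltransferase, rose from 59.7 ± 17.0 in wild-type and 64.0 ± 4.21 in heterozygous to 157 ± 32.3 in null cells, by 1.25 (SE 0.17, adjusted p = 0.000301). Its relatives Parp9 and Parp14 rose by 0.64 (adjusted p = 0.00543) and 0.56 (adjusted p = 0.0138). Rtp4, a chaperone of receptor transport, rose by 1.04, from 25.1 ± 8.06 to 63.4 ± 7.96. As with Rsad2, the heterozygous means of these 4 genes lay near those of wild type, and Parp12, Rtp4, Parp9 and Parp14 also rose in null against heterozygous cells (1.14, 0.89, 0.69 and 0.57). The enzymes that attach Isg15 to proteins were on the list: Uba7, which activates it, rose by 0.69 (adjusted p = 0.00637), and the ligase Herc6 by 0.88 (adjusted p = 0.00681). Ube2l6, the conjugating enzyme between them, was dim and gave -0.24 (95% interval -0.72 to 0.25). Other probe sets of Herc6 gave 0.91, -0.20 and -0.27, and those of Uba7 gave 0.60 and 0.33.

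Trim30a, a RING-finger protein of the immune response, rose by 0.46 in null and by 0.42 in heterozygous against wild type (adjusted p = 0.00319 and 0.0318), and was the 1 gene of these lists called in the latter comparison. Its other probe set gave 0.15 in null cells (adjusted p = 0.438). Lgals3bp, a secreted glycoprotein, rose by 0.49 (adjusted p = 0.0251). Tor3a, named after its values were seen as the 1 fall, gave -0.46 (adjusted p = 0.0376), while its other probe sets gave 0.13 and 0.21. The other oligoadenylate synthetases over the filter did not pass, with Oas2 at 0.56 (adjusted p = 0.0603), Oasl1 at 0.57 (adjusted p = 0.112) and Oas1b at 0.18. Mx1, a classical interferon target, was at 25.5 ± 5.75 in wild-type and 25.7 ± 6.94 in null cells, a change of 0.00 with an interval of -0.43 to 0.43.

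Genes tied to interferon gamma and antigen presentation had 9 of 23 higher and 1 lower in null against wild type, against 7.60% and 8.09% of all genes, with a median of 0.24. The guanylate-binding proteins Gbp7 and Gbp3 rose by 0.87 (SE 0.12, adjusted p = 0.000293) and 0.81 (SE 0.14, adjusted p = 0.00174), Gbp7 from 585 ± 82.3 to 1077 ± 152. The related GTPases Irgm2 and Igtp rose by 0.78 and 0.50, and B2m, the light chain of MHC class I, by 0.48, from 3308 ± 335 to 4593 ± 247. Tap1, the peptide transporter, rose by 0.65, the lysosomal reductase Ifi30 by 0.54 and the receptor chain Ifngr2 by 0.51. The other probe sets of Gbp7, B2m and Ifngr2 gave 0.87, 0.45 and 0.41, the last of which did not pass (adjusted p = 0.185). Irf8, a transcription factor of monocyte fate named as the 1 fall after its values were seen, gave -0.37 against wild type (adjusted p = 0.0436) and -0.66 against heterozygous cells (adjusted p = 0.00217). Its other probe set gave -0.58 (adjusted p = 0.0935) and -1.21 (0.00289). In all, the 6 lists held 104 tested genes besides the members, of which 23 rose and 3 fell in null against wild type, 1 rose and 0 fell in heterozygous against wild type, where 17 had an unadjusted p under 0.05, and 14 rose and 5 fell in null against heterozygous cells. All genes tested stood at 7.60% higher and 8.09% lower, 0.697% and 0.697%, and 6.84% and 7.49% in these comparisons. The lists too were chosen with earlier results of these data known, so these shares only describe them. In heterozygous against wild type the lists held only 1 call, too few to set their share above or below that of all genes, which was 1.39% in either direction. An unadjusted p under 0.05 was reached in that comparison by 1594 of the 12347 genes tested.

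**Figure D4:**
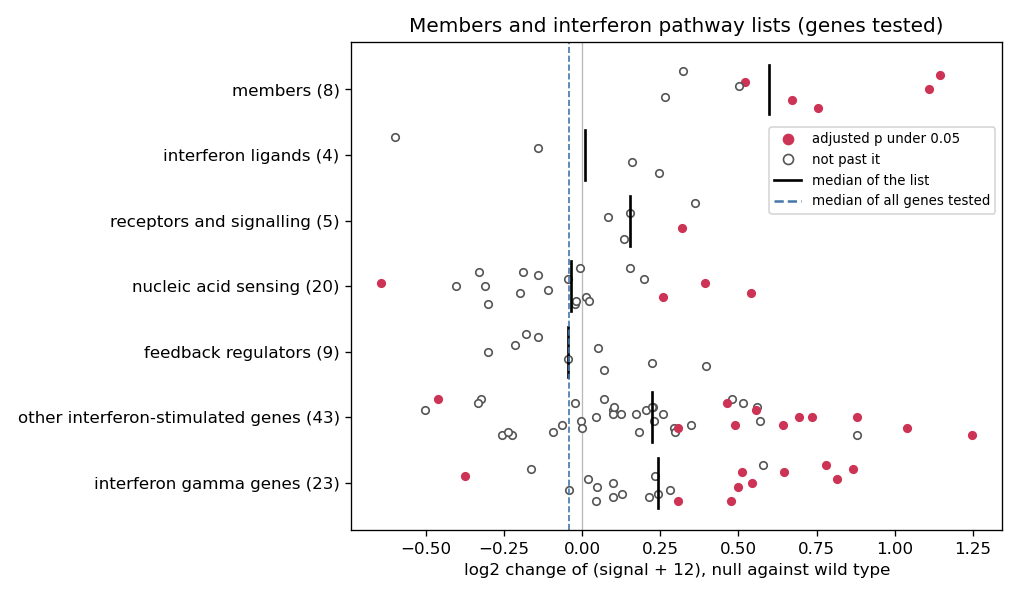
log2 change of (signal + 12) in null against wild type for the members and for the genes tested in 6 interferon pathway lists (points, filled where the adjusted p was under 0.05), with the median of each list (black bar) and of all genes tested (dashed line, -0.04). Vertical scatter within a list only separates points. The members' median is 0.60, and those of the other interferon-stimulated genes and the interferon gamma genes are 0.22 and 0.24.

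Of the 23 named pathway genes called in null against wild type, 12 passed when any 1 array was left out: Gbp7, B2m, Gbp3, Irgm2, Ifi30, Sting1, Parp12, Rtp4, Trim30a, Parp9, Uba7 and Herc6. Igtp was lost without null replicate 3 (adjusted p = 0.0503), and Parp14 without null replicates 1 and 3 (0.0598 and 0.0654). Tap1 was lost without null replicate 3 or either of wild-type replicates 1 and 3 (0.0839 to 0.0953). Lgals3bp was lost without replicates 1 or 3 of null or wild-type cells (0.0685 to 0.101), and Tor3a without null replicates 2 and 3 or wild-type replicates 1 and 3 (0.0783 to 0.148). Jak1 and Ifngr2 both failed without null replicates 1 and 2, heterozygous replicate 2 and wild-type replicate 3, Jak1 also without wild-type replicate 1 (0.0542 to 0.148) and Ifngr2 without wild-type replicate 2 (0.0552 to 0.133). Ddx58 failed without null replicates 2 and 3, heterozygous replicate 2 and wild-type replicates 1 and 3 (0.0575 to 0.171). Tbk1, Eif2ak2 and Irf8 passed in only 2 of the 9 such fits each. Tbk1 passed without heterozygous replicate 1 and without wild-type replicate 1, and was lost in the other 7 fits (0.0512 to 0.133). Eif2ak2 passed without null replicate 3 and without heterozygous replicate 1 (0.0575 to 0.191 in the other 7), and Irf8 without null replicate 1 and without wild-type replicate 2 (0.0521 to 0.185 in the other 7). In heterozygous against wild type, Trim30a failed without heterozygous replicates 2 and 3 or wild-type replicates 1 and 2 (0.0995 to 0.149). In null against heterozygous cells, Ddx58 failed without null replicates 2 and 3 and each heterozygous replicate (0.0520 to 0.158), Tbk1 without null replicate 3 and heterozygous replicate 1 (0.0596 and 0.0600), Rnaseh2a without null replicate 1 and heterozygous replicate 1 (0.0690 and 0.0695) and Parp14 without null replicates 1 and 3 (0.0532 and 0.0599).

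Markers of other cells moved with these genes in part. The summed signal of 7 monocyte and macrophage genes was 2362 to 3658 in wild-type cells, 3643 to 4176 in heterozygous cells and 4111 to 4174 in null cells, carried by Csf1r and Ccr2. Ccr2 gave 0.75 in null against wild type (adjusted p = 0.0459). Leaving out wild-type replicate 2 gave 0.35 (0.0743). On that array, the one with the high Xist signal, Ccr2 read 640 against 1389 and 1587 in the other wild-type arrays. That call held only without wild-type replicate 1 or 3 and was lost in the other 7 fits that left out an array (0.0562 to 0.154). Other probe sets of Ccr2 gave 0.78, -0.24 and -0.25, and none passed. Csf1r, Cx3cr1, Adgre1 and C1qb, the other genes of this list tested, gave 0.22, 0.16, -0.03 and -0.09 in null against wild type, and none passed. Adgre1 and C1qb gave 0.48 and 0.50 in heterozygous against wild type, and neither passed (adjusted p = 0.225 and 0.386). The macrophage genes C1qb and Ms4a7 had mean signals of 7.92 and 11.4 in null cells, and C1qa had 2.44 over all 9 arrays. The 8 plasmacytoid dendritic cell genes, typical of the main interferon producers, summed to 896 to 914, 760 to 810 and 816 to 955 in wild-type, heterozygous and null cells, and limma called 0 of the 5 tested. Siglech, which defines those cells, was at 12.6, 12.5 and 10.7. The summed signal of 6 B cell genes was 1162 to 1405 in wild-type, 1060 to 1168 in heterozygous and 539 to 623 in null cells, and Ighm alone carried the difference, at -1.42 against wild type (adjusted p = 1.02e-06), while Cd79b and Ms4a1 gave -0.15 and 0.15 and did not pass. Of 7 T and NK cell genes 2 were tested, and both fell against wild type, Nkg7 at -0.40 (adjusted p = 0.0105) and Klrd1 at -0.65 (0.0420). The Klrd1 call held only without null replicate 2 or heterozygous replicate 1 (0.0524 to 0.137 in the other 7 fits). The summed signal of 7 mature neutrophil genes overlapped between genotypes, at 3918 to 7321 in wild-type, 2772 to 5034 in heterozygous and 2364 to 8640 in null cells. Of the 7, 2 fell in null against wild type, Ltf (-2.09) and Ngp (-2.12). S100a8, S100a9, Camp, Mmp8 and Cxcr2 gave 0.09, -0.23, -0.45, -0.29 and -0.11 there, and none passed. Both Ltf and Ngp also fell in heterozygous against wild type, Ltf at -1.97 (adjusted p = 0.000411) and Ngp at -1.86 (0.0144). The Ngp call was lost without heterozygous replicate 2 (0.0912). The part of these cells in the interferon gene results was not tested.

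Outside the lists, 8 genes were most like the members over the 9 arrays, by the Pearson correlation of their log2 values with the mean of the members' standardised values. Ifi204, an interferon-inducible gene of the IFI200 family, came first at 0.978, with signals of 7.48, 8.41 and 3.69 in wild-type cells, 16.3, 12.9 and 20.7 in heterozygous cells and 24.3, 21.5 and 24.1 in null cells. It rose by 0.94 in null against wild type (adjusted p = 0.00559) and was dim. Its wild-type signals all lay under the filter signal of 8.49, so it passed the filter through its heterozygous and null arrays. The others, at 0.9754 to 0.9395, were Mcph1, Nmt1, Usp42, Cyb5r3, Shisa5, Tmed8 and Prkcb. Their changes in null against wild type ran from 0.24 in Nmt1 to 0.83 in Tmed8. The Nmt1 call was lost without null replicates 1 and 3, heterozygous replicate 2 or wild-type replicates 1 and 3 (adjusted p = 0.0544 to 0.116). Other probe sets over the filter gave 0.12 for Mcph1, -0.06 for Nmt1, 0.72 and -0.13 for Cyb5r3, 0.29 for Shisa5, 0.06 for Tmed8 and 0.80 for Prkcb. The measure was computed on the same arrays that show the genotype differences, so the changes of these 8 genes are no separate support.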

How the data were processed

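RNA of 9 samples was hybridised to 1 array each. The deposited intensity values are linear MAS5 signals of the authors, MAS5 being named by the submitters' processing notes, with version, settings and background calls not given in the sources used here. Each array's 2% trimmed mean was 100, which hides any shift common to most transcripts. The number of arrays limits the precision. Signals were used as log2(signal + 12), so changes understate those of dim genes. The brightest of a gene's probe sets stood for it. Genes whose mean log2(signal + 12) was under the 40th percentile of all probe sets without controls were left out. limma 3.58.1 in R 4.3.3 (lmFit, eBayes with trend) was fitted on 12347 genes and all 9 arrays, two-sided, with Benjamini-Hochberg adjustment over all genes, and again over 26398 probe sets. An exact permutation test of 3 against 3 cannot go below p = 0.1. The fit was tested on simulated data. The members and lists were chosen with earlier results of these data known. Named by rule are all members, up to 8 called genes per pathway list by smallest p, the 8 genes most like the members, and Dicer1. Pathway genes named though not called, such as Stat2, Usp18 and Mx1, are outside this rule, as are Tor3a and Irf8. Symbols came from the platform annotation, and the RefSeq table of GRCm38.p6 matched 34741 of 34945 probe sets with 1 symbol. The fits that left out 1 array for called cell type markers were chosen after seeing the data.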

Additional observations from a re-analysis of the deposited data

How the results depend on the processing

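There were 20 alternatives, 9 of which left out 1 array each. Changes of members called in the report kept their direction in all of them, and calls in null against wild type held throughout for Oas1a, Cmpk2 and Irf9. Members called in null against wild type were 5, with a range of 4 to 6 when 1 array was left out, and 3 when all probe sets of a gene were averaged. In null against heterozygous cells they were 3, 2 to 3 without 1 array, and 1 with probe sets averaged. In heterozygous against wild type they were 2, 0 to 2 without 1 array, 1 with no filter, with only the 2 groups compared, with probe sets averaged or with the replicate number as a block (replicate block), and 0 without an intensity trend, where limma gave 4 with an unadjusted p under 0.05. Of all genes, 15.7% were called in null against wild type, 10.2% to 15.7% without 1 array and 12.1% with probe sets averaged. In null against heterozygous cells the same shares were 14.3%, 8.36% to 15.35% and 10.95%. In heterozygous against wild type they were 1.39%, 0.784% to 1.37% and 0.75%. In that comparison 0.616% were called with no filter, 0.672% without a trend, 1.34% with only the 2 groups compared and 1.63% with the replicate block. Called probe sets of the members in this comparison were 1, 0 to 1 without 1 array, 2 with array weights or a filter at the 60th percentile, and 0 without a trend (unadjusted, 4). Pathway genes called in null against wild type were 26, 15 to 24 without 1 array, 17 with no filter, and 16 without a trend or with only the 2 groups compared. The share of all genes called fell as well, to 8.44% with no filter, 10.45% without a trend and 13.1% with only the 2 groups compared. In heterozygous against wild type the pathway genes called were 1, 0 to 3 without 1 array, 2 with a pseudocount of 32 and 0 without a trend (unadjusted, 13). The value for Ifit1 in null against heterozygous, -0.00, was 0.0015 with a pseudocount of 4, 0.0574 after quantile and 0.0581 after cyclic loess normalization, 0.0563 with array weights, and -0.10 to 0.10 without 1 array. Without 1 array, Ifit1 ran from -0.0464 to 0.51 in null and -0.0443 to 0.51 in heterozygous against wild type, and Rsad2 from -0.15 to 0.25 in heterozygous against wild type. The cause of these shifts was not tested, beyond the fewer arrays or the larger number of genes tested. Same-numbered arrays deviated together in 2 of 9 pairs at a correlation over 0.1 (-0.027 to 0.143). Whether arrays of 1 number share a donor or batch cannot be told from this, since the labels do not say. The replicate block gave 5 and 3 called members in the null comparisons. Over all genes it gave 2111 calls in null against wild type, where the main fit gave 1937.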
